A study of Mus musculus with 15 samples.

Results

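Purified dermal adipocytes at P29 were compared with those at P25, postnatal days 29 and 25, by RNA-seq. The comparison used 6 of the 15 libraries in the series, 3 at each age, and 12259 of the 35275 genes in the deposited table, those at 1 FPKM or more in at least 3 of the 15 libraries. FPKM is a read count scaled to gene length and to the depth of the library. All libraries came from C57BL/6 mice with no other allele or agent in the labels. Cells were obtained from dorsal skin with Collagenase IV and Dispase II, followed by flotation of the fat-laden cells, and total RNA was sequenced. The remaining 9 libraries, 3 each at P21, P35 and P49, entered the level filter, the estimate of the spread and the levels shown for context. The labels give neither the sex of the mice nor whether the 3 libraries of an age were separate animals or pools. The p-values therefore measure only the spread between these libraries, which may be technical.

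Dermal white adipose tissue lies beneath the hair follicles and expands and shrinks with the hair growth cycle. Its mature adipocytes make fatty acids from glucose, store them as triglyceride, and secrete hormones such as adiponectin. Cells make cholesterol through a long enzymatic route from acetyl-CoA by way of mevalonate, squalene and lanosterol. The transcription factor SREBP2 drives the genes of that route when membrane sterol is low, while SREBP1 acts mainly on fatty acid genes and the oxysterol-sensing LXR receptors drive genes of sterol export.

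The label of mature adipocytes was checked against 23 adipocyte markers, 22 of them tested. Their summed level was 53139, 25982 and 47143 FPKM in P25 replicates 1, 2 and 3, and 53537, 50653 and 53775 FPKM in the P29 libraries. Adipoq, which encodes adiponectin, was at 2658.5, 1406.5 and 2575.9 FPKM at P25 and at 3051.1, 3282.5 and 3045.5 FPKM at P29. Adipocyte RNA was thus abundant in all 6 libraries, and P25 replicate 2 stood apart with the lowest values. Several lists of markers of other cells were highest in that library. Fibroblast and preadipocyte markers summed to 11614 FPKM there and to between 1215 and 2273 FPKM in the other 5 libraries. Endothelial markers summed to 287 FPKM against 61.6 to 161 FPKM, and macrophage markers to 1874 FPKM against 502 to 1162 FPKM. Mast cell markers summed to 387 FPKM against 23.0 to 99.3 FPKM, and hair shaft and root sheath markers to 134 FPKM against 3.02 to 32.1 FPKM. P29 replicate 2 had the highest fibroblast, endothelial and macrophage sums among the other 5. In log2(FPKM + 1) over all tested genes, P25 replicate 2 correlated with P25 replicates 1 and 3 at r = 0.925 and 0.928, while those correlated with each other at r = 0.993, as a description across genes. Differences and adjusted p are therefore given with and without P25 replicate 2. In bulk RNA, fewer cells of a type and less RNA per cell cannot be told apart.

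**Figure D1:**
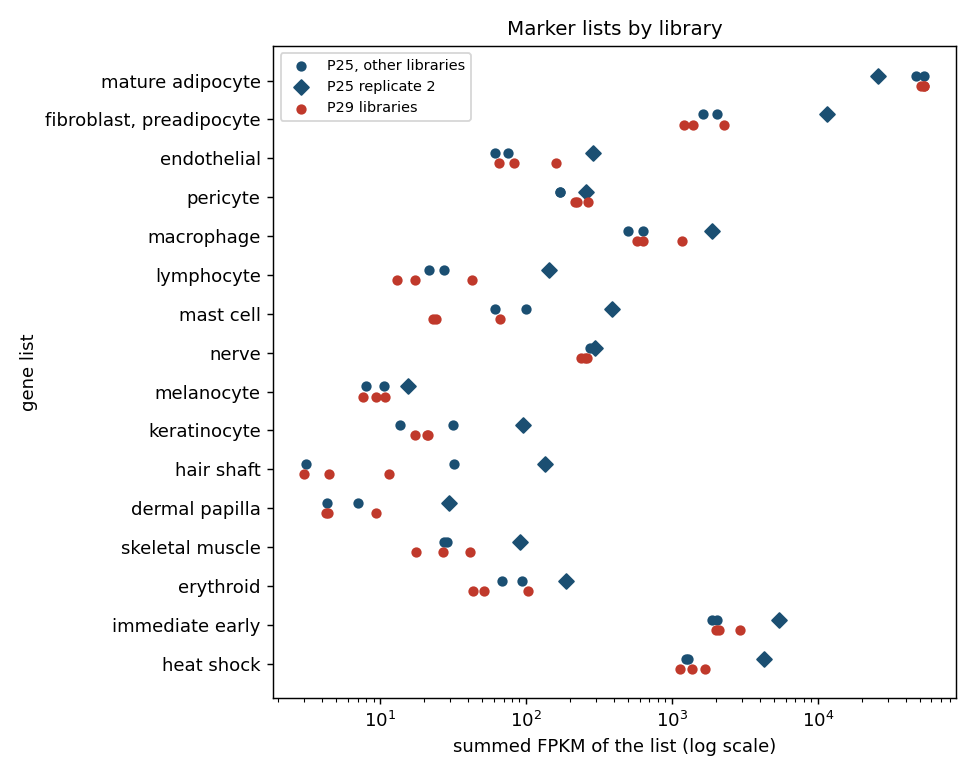
Summed FPKM of each marker list (log scale) in the 6 libraries, with P25 in blue, P29 in red and P25 replicate 2 as a diamond. P25 replicate 2 had 25982 FPKM of adipocyte markers, the lowest of the 6, and 11614 FPKM of fibroblast markers, the highest.

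A gene was called changed at an adjusted p under 0.05 in a limma fit of log2(FPKM + 1). Differences are P29 minus P25 on that scale, which understates changes of genes near or below 1 FPKM. With all libraries 49 genes passed, or 0.4% of those tested, 31 of them higher at P29 (0.253%) and 18 lower (0.147%). Without P25 replicate 2, 75 genes passed (0.612%), 34 higher (0.277%) and 41 lower (0.334%). The fits shared 36 calls, 73.5% of the first set and 48% of the second, and all 88 genes called in either had the same direction in both. The 3 libraries of one age lay wholly above those of the other for all 49 genes of the first fit. Over all tested genes this held for 6.84% in the direction of higher at P29 and for 6.77% lower. At an unadjusted p under 0.05 there were 1488 genes with all libraries and 1491 without P25 replicate 2, and the median difference over all tested genes was -0.02 and -0.01.

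The split of calls moved with the scaling. Quantile normalization gave 28 higher and 7 lower with all libraries, and 41 higher and 24 lower without P25 replicate 2. Median-ratio scaling gave 40 higher and 27 lower without P25 replicate 2. With the replicate number as a block, the counts fell to 31 (24 higher, 7 lower) and 34 (21 higher, 13 lower), and 28 and 31 of the original calls remained. Single libraries mattered as well. With all libraries as the start, 8 calls remained without P29 replicate 2, 17 without P29 replicate 3, 19 without P29 replicate 1, 21 without P25 replicate 3 and 23 without P25 replicate 1. Among the libraries of other ages, 22 remained without P49 replicate 1 or 2, 25 without P21 replicate 1 and 29 without P49 replicate 3. Without P25 replicate 2, further omission of P25 replicate 3 left 0 calls (951 genes at an unadjusted p under 0.05), with the lone P25 library assumed to vary like the other ages. In that smaller fit, 10 of the 75 calls remained without P25 replicate 1 or P29 replicate 2, and 22 without P29 replicate 3. Omission of P29 replicate 1 raised the count to 140 genes, and 63 of the 75 remained.

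The genes of sterol synthesis were lower at P29 as a group. All 20 genes of the list were tested and 19 had a negative difference in both fits, with a median of -0.74 with all libraries and -0.89 without P25 replicate 2. Of these, 4 fell with all libraries, namely Sqle, Idi1, Msmo1 and Hsd17b7. Without P25 replicate 2, 6 fell, namely Sqle, Idi1, Msmo1, Mvk, Lss and Sc5d. For 12 of the 20 genes every P29 library was below every P25 library, and for none was it above. Over all tested genes, 6.77% lay wholly below and 6.84% wholly above. The share called lower over all tested genes was 0.147% with all libraries and 0.334% without P25 replicate 2, and the medians were -0.02 and -0.01.

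Sqle encodes squalene epoxidase, a rate-controlling step after squalene (chr15:59315077-59331192, GRCm38, plus strand). It was at 4.99, 6.81 and 6.77 FPKM at P25 and at 2.89, 2.10 and 1.84 FPKM at P29. All P29 libraries lay below all P25 libraries, with a difference of -1.13 (SE 0.19, adjusted p = 0.0257) and, without P25 replicate 2, -1.07 (SE 0.21, adjusted p = 0.0456). Idi1, which makes the second of the C5 building blocks of isoprenoids, was at 6.84, 6.82 and 8.88 FPKM at P25 and at 4.33, 3.32 and 3.39 FPKM at P29. The groups did not overlap, and the difference was -0.86 (SE 0.14, adjusted p = 0.0197), or -0.92 (SE 0.15, adjusted p = 0.0216) without P25 replicate 2. Msmo1, a demethylase that acts after lanosterol, was at 12.4, 14.6 and 17.4 FPKM at P25 and at 8.04, 5.79 and 6.41 FPKM at P29. Its groups did not overlap either, with a difference of -1.03 in both fits (adjusted p = 0.0118 and 0.0237). Hsd17b7, the ketoreductase of the same demethylation complex, went from 3.51, 4.16 and 3.98 FPKM to 2.393, 1.999 and 2.297 FPKM, with no overlap. Its difference was -0.60 (SE 0.11, adjusted p = 0.0351), and -0.55 without P25 replicate 2, which did not pass (adjusted p = 0.0544).

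Mvk, the mevalonate kinase, was at 21.5, 15.8 and 26.1 FPKM at P25 and at 16.52, 12.04 and 13.59 FPKM at P29. Sc5d, a desaturase near the end of the route, was at 61.4, 38.3 and 65.9 FPKM and then at 43.1, 32.9 and 36.0 FPKM. Lss, the lanosterol synthase, was at 5.97, 3.84 and 8.92 FPKM and then at 3.86, 2.52 and 3.22 FPKM. In these 3 genes P25 replicate 2 was the lowest P25 library and overlapped the P29 range. Without it the differences were -0.72, -0.76 and -0.999 (adjusted p = 0.0282, 0.0313 and 0.0264), and with it they were -0.54, -0.52 and -0.74 (adjusted p = 0.182, 0.276 and 0.190). Mvd had the most negative difference of the list, -1.33, but did not pass (adjusted p = 0.0851, or -1.52 and 0.0545 without P25 replicate 2). Its levels of 14.74, 12.97 and 26.23 FPKM at P25 did not overlap those of 8.97, 4.46 and 5.85 FPKM at P29. Fdps, Dhcr7, Cyp51, Nsdhl, Pmvk and Fdft1 had differences between -1.11 and -0.52 with no overlap and adjusted p between 0.0958 and 0.327. Without P25 replicate 2 these were between -1.22 and -0.66, with adjusted p between 0.0667 and 0.191. Hmgcs1, the HMG-CoA synthase, was the one gene of the list with a positive difference, 0.05 with all libraries and 0.10 without P25 replicate 2 (adjusted p = 0.912 in both).

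The sterol calls rested on few libraries. With all libraries as the start, Sqle, Idi1 and Msmo1 missed the threshold without P29 replicate 2 (adjusted p = 0.151, 0.146 and 0.0893), without P29 replicate 3 (0.121, 0.110 and 0.0782) and without P25 replicate 3 (0.0836, 0.0682 and 0.0506). Sqle also missed it without P49 replicate 2 (adjusted p = 0.0503). Hsd17b7 missed it in 11 of 15 omissions, up to 0.167 without P29 replicate 2. With the replicate block Hsd17b7 was no longer called (adjusted p = 0.0753), nor was any of the 6 calls without P25 replicate 2 (adjusted p = 0.0713 to 0.0938). Under quantile normalization with all libraries, Idi1 and Hsd17b7 had an adjusted p of 0.0626 and 0.103. Across the other ages, Sqle ranged from 1.42 to 2.53 FPKM at P21, from 2.04 to 3.63 FPKM at P35 and from 2.78 to 3.67 FPKM at P49. Its P25 libraries were thus the highest of all 15.

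**Figure D2:**
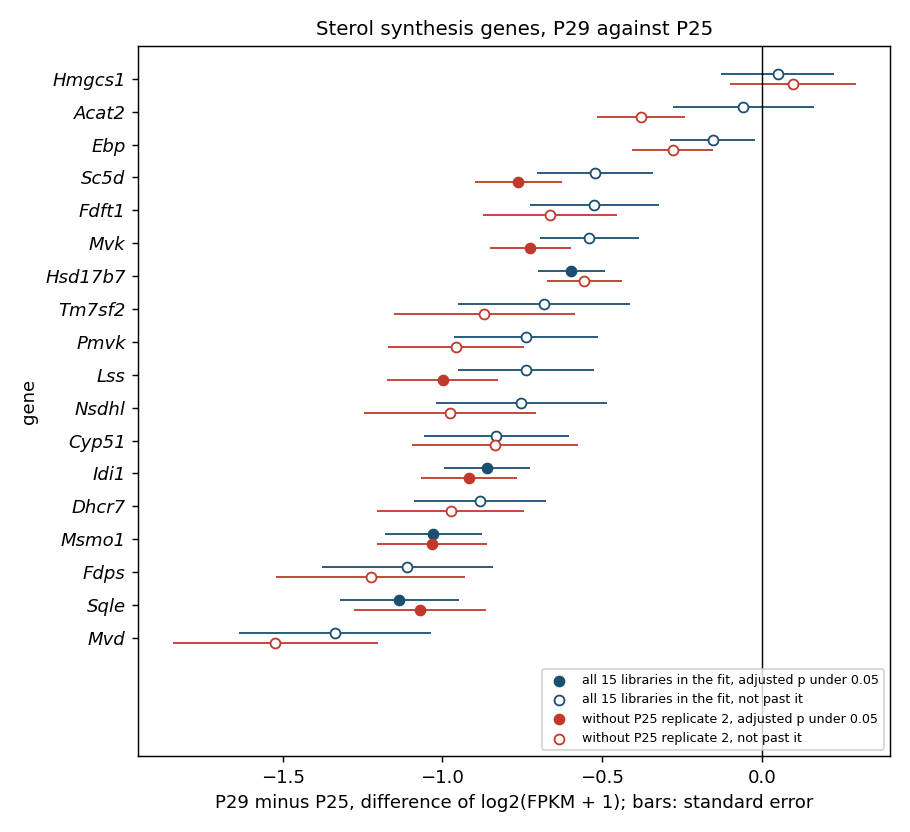
Difference P29 minus P25 in log2(FPKM + 1) with its standard error for 18 sterol synthesis genes, with all libraries (blue) and without P25 replicate 2 (red). Filled points passed an adjusted p of 0.05, and 17 of the 18 genes drawn lie below 0 in both fits.

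Promoter letters are shown for the called sterol genes Mvk and Sc5d, whose window lies wholly before the gene bounds of the deposited table. The 180 bases before the RefSeq start site are given on the gene's strand (GRCm38.p6), with CCAAT or its reverse complement ATTGG in capitals, the box bound by NF-Y, a known partner of SREBP.
Mvk, chr5:114444089-114444268, plus strand: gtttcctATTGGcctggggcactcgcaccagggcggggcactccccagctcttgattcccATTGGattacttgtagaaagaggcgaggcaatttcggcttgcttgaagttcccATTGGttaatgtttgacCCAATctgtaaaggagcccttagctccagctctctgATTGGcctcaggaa
Sc5d, chr9:42264301-42264480, minus strand: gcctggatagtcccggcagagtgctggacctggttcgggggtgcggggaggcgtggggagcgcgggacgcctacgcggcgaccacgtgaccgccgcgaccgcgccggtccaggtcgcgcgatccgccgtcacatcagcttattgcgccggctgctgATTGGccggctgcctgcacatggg
The Mvk window held 5 matches and the Sc5d window 1. Over all 32851 RefSeq promoter windows of 300 bases, 250 before and 50 after the start site, 37.4% held CCAAT on either strand. Those windows are longer than the 180 bases shown, so the share is not a matched background. A second motif searched, TCACNCCAC, was in 1.24% of all windows and in no window of Mvk or Sc5d. Hmgcs1 was the 1 listed gene with a match to it. A share over the whole list is void because 15 of its 20 genes, or 75%, had a window and 80% was required. A match is a description of the letters and not evidence of binding.

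Genes of sterol sensing, uptake and export were mixed, with 17 of 18 tested and medians of -0.05 and 0.04. Abcg1, a sterol exporter driven by LXR, rose in both fits. It was at 8.55, 7.15 and 5.90 FPKM at P25 and at 12.05, 18.80 and 15.05 FPKM at P29, so the groups did not overlap. The difference was 0.98 in both fits (adjusted p = 0.0118 and 0.0237). Its call was lost without P29 replicate 2 (adjusted p = 0.0596) or P29 replicate 3 (0.0685), and with the block in the fit without P25 replicate 2 (0.0736). Srebf2, which encodes SREBP2, was at 10.4, 16.3 and 10.9 FPKM at P25 and at 7.497, 8.077 and 6.955 FPKM at P29. It fell without P25 replicate 2 (difference -0.45, adjusted p = 0.0483) but did not pass with all libraries (-0.64, adjusted p = 0.0705) or with the block in the smaller fit (0.0971). Insig1, a SREBP target that retains the SREBP complex in the endoplasmic reticulum, was at 232, 241 and 330 FPKM and then at 175, 133 and 132 FPKM, with a difference of -0.86 that did not pass (adjusted p = 0.0685, or -0.92 and 0.0545 without P25 replicate 2). Lrp1, Nr1h3 and Apoe had higher levels in every P29 library with differences of 0.45 to 0.48, or 0.15 to 0.42 without P25 replicate 2, none called in either fit.

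Fatty acid synthesis genes had a median difference of -0.49, or -0.72 without P25 replicate 2, over 20 tested of 21. With all libraries 5 differences were positive and 15 negative, and without P25 replicate 2 these were 4 and 16. For 7 of the 20 every P29 library was below every P25 library, and for 1 above. Over all tested genes 6.77% lay wholly below and 6.84% wholly above, and 0.147% and 0.334% were called lower in the 2 fits. Fads1, the delta-5 desaturase of polyunsaturated fatty acids, fell in both fits. It was at 24.6, 25 and 35.2 FPKM at P25 and at 12.8, 11.2 and 14.3 FPKM at P29. All P29 libraries were lower, with differences of -1.07 (SE 0.14, adjusted p = 0.00592) and -1.15 (SE 0.15, adjusted p = 0.00872). Its call was lost by a small margin without P29 replicate 2 (adjusted p = 0.0510). Thrsp, a lipogenic regulator, fell only in the fit without P25 replicate 2 (difference -0.97, adjusted p = 0.0333), and there the block gave 0.0616. With all libraries the difference was -0.70 (adjusted p = 0.225). Its levels were 1310, 737 and 1292 FPKM and then 892, 554 and 592 FPKM. Acly, which supplies cytosolic acetyl-CoA, had the largest negative difference of all genes in this list without passing the test, -1.67 (SE 0.40, adjusted p = 0.108), and -1.89 (SE 0.44, adjusted p = 0.0783) without P25 replicate 2. It was at 423, 334 and 677 FPKM at P25 and at 211, 88.8 and 156 FPKM at P29, with no overlap but a wide spread within each age. Fasn, the fatty acid synthase, was at 1821, 1193 and 2533 FPKM and then at 1055, 525 and 1018 FPKM, a difference of -1.09 that did not pass (adjusted p = 0.240, or -1.38 and 0.121 without P25 replicate 2). Scd2 (-1.53), Acss2 (-1.40), Me1 (-1.04) and Slc25a1 (-0.90) were likewise lower in every P29 library and not called. Without P25 replicate 2 their differences were -1.68, -1.69, -1.21 and -1.09, also not called (adjusted p = 0.0544 to 0.155). Acly, Fasn and these 4 genes lie outside the rule for named genes and were chosen after their values were seen, as were Col4a2, Hp, Mup3, Mup4, Mup5, Sulf2 and Tmem86a.

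**Figure D3:**
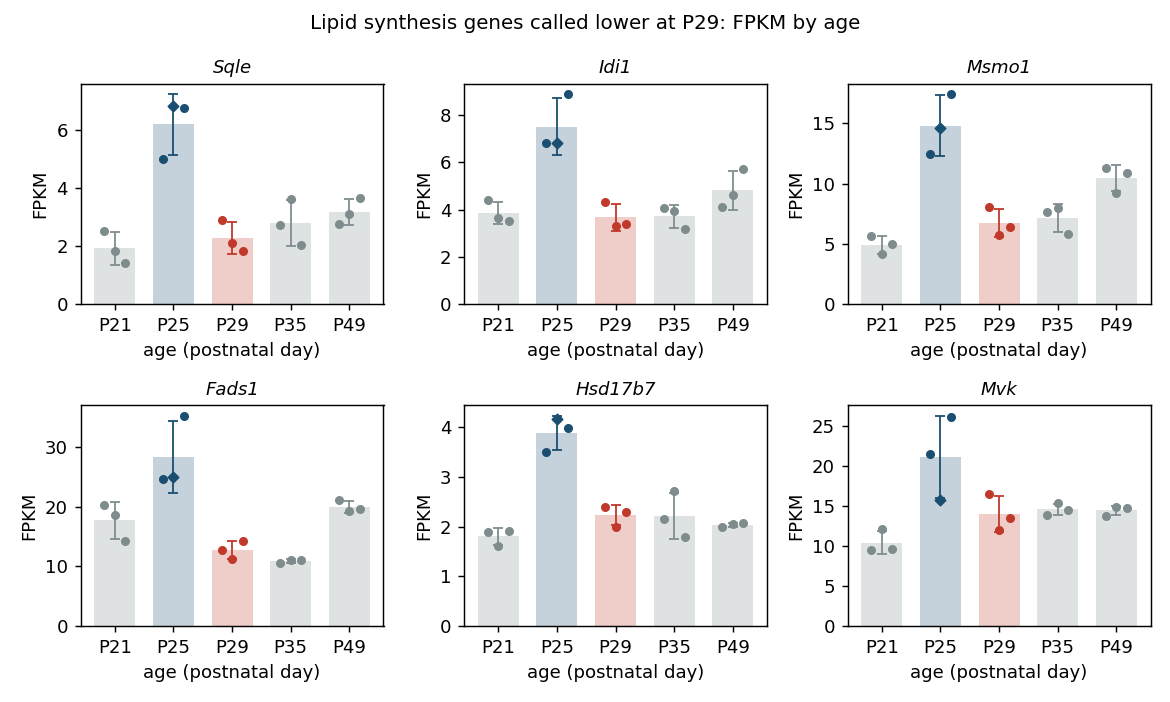
FPKM by age for 6 lipid synthesis genes called lower at P29 in at least 1 of the fits. Bars are means with SD of 3 libraries, points are libraries, and the diamond is P25 replicate 2; Sqle lies at 4.99 to 6.81 FPKM at P25 and at 1.84 to 2.89 FPKM at P29.

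Other lipid handling changed in few genes. None of the tested genes of triglyceride synthesis (14), lipolysis (16) or fatty acid uptake (12) passed in either fit, and at an unadjusted p under 0.05 there were 2, 1 and 2 with all libraries and 2, 1 and 1 without P25 replicate 2. Of the 17 tested genes of fatty acid oxidation, Cpt1a, which admits fatty acids to mitochondria, rose without P25 replicate 2 (difference 0.81, adjusted p = 0.0218). It was at 15.2, 20 and 13.7 FPKM and then at 24.8, 30.3 and 23.6 FPKM, with no overlap, but did not pass with all libraries (0.66, adjusted p = 0.0821) or with the block (0.0736). None of 30 nuclear oxidative phosphorylation genes passed, with medians of -0.04 with all libraries and -0.22 without P25 replicate 2. With all libraries 22 of the 30 were negative and 1 had an unadjusted p under 0.05, and without that library 29 were negative and 12 had one. Among mature adipocyte markers Tusc5, which encodes a protein of GLUT4 vesicle traffic, rose in both fits. It was at 134, 87.6 and 132 FPKM at P25 and at 217, 221 and 217 FPKM at P29. The P29 libraries were close together and above all P25 libraries, with differences of 0.91 (adjusted p = 0.0392) and 0.71 (0.0394). That call was lost in 10 of 15 omissions, with an adjusted p of up to 0.159 without P29 replicate 2. Retn, which encodes resistin, fell only without P25 replicate 2 (difference -0.71, adjusted p = 0.0441, or 0.0971 with the block, against -0.36 and 0.527 with all libraries), from 1389, 704 and 1543 FPKM to 1068, 745 and 896 FPKM. Adipoq was higher in every P29 library without passing (difference 0.55, adjusted p = 0.301, or 0.26 and 0.383 without P25 replicate 2).

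A few genes of TGF-beta signalling and 1 of the matrix were called higher at P29, while the lists as a whole were mixed. TGF-beta ligands are stored in the matrix bound to LTBP proteins and signal through receptors to SMAD factors, which induce their own inhibitors. Of 27 listed genes, all tested, 2 were called higher with all libraries and 3 without P25 replicate 2, and none was called lower. Over all tested genes 0.253% and 0.277% were called higher. With all libraries 11 of the 27 differences were positive and 16 negative, against 20 and 7 without P25 replicate 2. The list's median was -0.03 and 0.11. Pmepa1, a SMAD-induced inhibitor of the pathway (chr2:173224458-173276533, minus strand), was at 27.0, 30.2 and 28.3 FPKM at P25 and at 82.9, 99.3 and 61.6 FPKM at P29. The lowest P29 library was well above the highest P25 library, with differences of 1.45 (SE 0.17, adjusted p = 0.00413) and 1.496 (SE 0.20, adjusted p = 0.00872). It ranged from 14.6 to 17.7 FPKM at P21, from 85.5 to 129 FPKM at P35 and from 72.1 to 91.9 FPKM at P49. Ltbp3, which secretes and anchors latent TGF-beta, was at 68.9, 51.3 and 72.8 FPKM at P25 and at 121, 125 and 110 FPKM at P29. Its groups did not overlap, with differences of 0.89 (adjusted p = 0.0122) and 0.74 (0.0144), and the call was lost without P29 replicate 1 (0.0677) or P29 replicate 2 (0.0916). Smad7, an inhibitory SMAD, rose only without P25 replicate 2 (difference 0.71, adjusted p = 0.0242). It was at 7.41, 15.2 and 6.88 FPKM at P25 and at 12.3, 13.1 and 11.6 FPKM at P29, so that P25 replicate 2 exceeded every P29 library, and with all libraries its difference was 0.38 (adjusted p = 0.477). The ligands Tgfb1, Tgfb2 and Tgfb3 and the receptors Tgfbr1 and Tgfbr2 were called in neither fit.

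Col4a1, a basement membrane collagen that surrounds each adipocyte, was the 1 gene of 30 in the matrix list to be called. In that list 13 differences were positive and 17 negative with all libraries (median -0.19). Without P25 replicate 2 these were 16 and 14 (median 0.04). Col4a1 was at 533, 483 and 559 FPKM at P25 and at 806, 863 and 769 FPKM at P29, with no overlap. The differences were 0.63 (adjusted p = 0.0300) and 0.57 (0.0368), and its adjusted p with the block was 0.0598 and 0.0785. The call was lost in 9 of 15 omissions, with an adjusted p of up to 0.153 without P29 replicate 2. Its chain partner Col4a2 was also higher in every P29 library and did not pass (0.44, adjusted p = 0.128, or 0.36 and 0.163 without P25 replicate 2). Col1a1 overlapped, at 549, 5160 and 771 FPKM and then 437, 775 and 368 FPKM. Of 19 tested contractile and actin-binding genes, 1 difference was positive and 18 negative with all libraries (median -0.36). Without P25 replicate 2 these were 10 and 9 (median 0.07). Over all tested genes 0.253% and 0.277% were called higher. Synpo2, an actin-binding protein, was the 1 gene of that list to be called. It rose from 12.02, 9.817 and 10.88 FPKM to 25.9, 37.6 and 29.8 FPKM, with no overlap, by 1.42 (SE 0.18, adjusted p = 0.00579) and 1.35 (SE 0.21, adjusted p = 0.0179). Acta2, the smooth muscle actin, overlapped between ages, at 5.79, 45.6 and 7.67 FPKM and then 4.62, 10.7 and 4.31 FPKM.

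**Figure D4:**
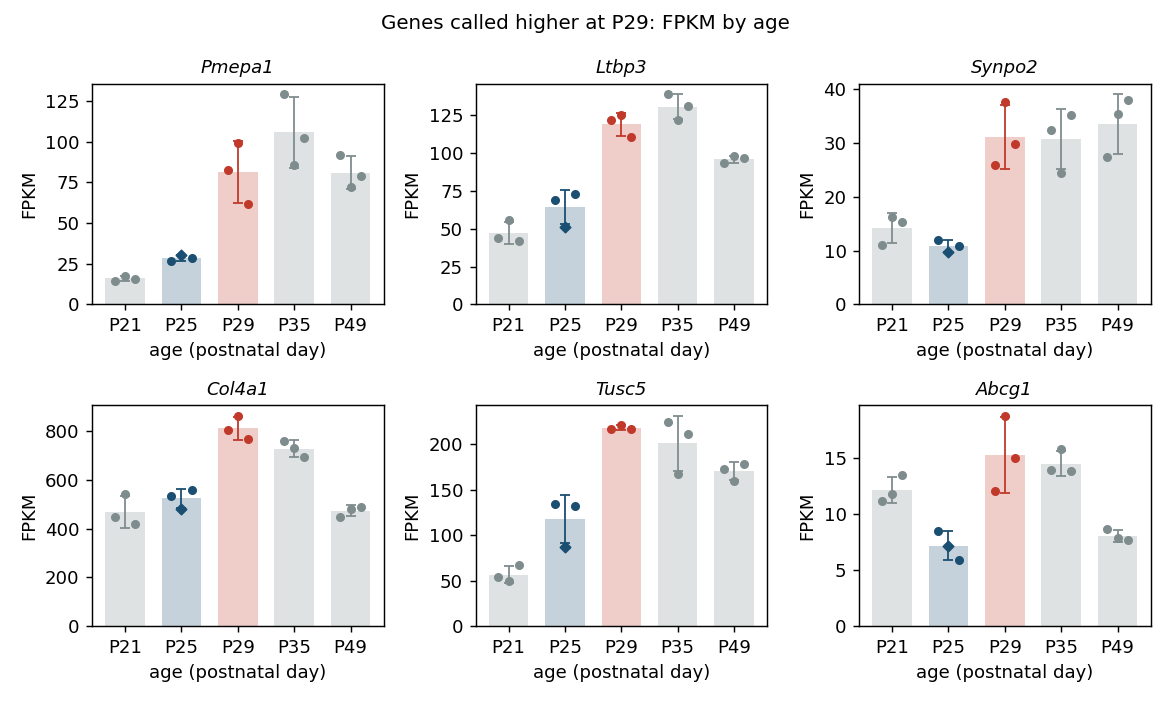
FPKM by age for 6 genes called higher at P29 in both fits. Bars are means with SD of 3 libraries, points are libraries, and the diamond is P25 replicate 2; Pmepa1 lies at 27.0 to 30.2 FPKM at P25 and at 61.6 to 99.3 FPKM at P29.

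The largest differences of all tested genes, those of Mup7 and Mup17, were in major urinary protein genes, a cluster on chromosome 4 that encodes lipocalins which carry pheromones and are made mainly by liver. Their upstream letters are shown because the cluster arose by duplication and its members are hard to tell apart. For 4 called members a shared stretch of 110 bases before the RefSeq start site is given on the gene's strand (minus, GRCm38.p6), with bases that differ from Mup7 in capitals. Relative to that site the stretch begins at -115 in Mup7 and at -250, -242 and -244 in Mup10, Mup15 and Mup17. Mup20, also called, is not shown.
Mup7, chr4:60070481-60070590: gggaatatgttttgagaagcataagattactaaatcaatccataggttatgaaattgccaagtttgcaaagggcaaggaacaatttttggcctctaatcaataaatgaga
Mup10, chr4:60582296-60582405: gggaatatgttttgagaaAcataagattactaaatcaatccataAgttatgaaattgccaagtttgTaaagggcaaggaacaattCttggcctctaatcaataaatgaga
Mup15, chr4:61439837-61439946: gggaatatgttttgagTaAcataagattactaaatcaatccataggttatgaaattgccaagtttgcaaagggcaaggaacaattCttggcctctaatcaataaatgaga
Mup17, chr4:61595967-61596076: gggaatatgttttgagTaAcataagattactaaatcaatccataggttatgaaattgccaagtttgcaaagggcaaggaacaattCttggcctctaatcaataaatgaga
The stretch differed from that of Mup7 at 4 bases in Mup10 and at 3 in Mup15 and in Mup17.

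The table held 21 Mup genes, of which 8 passed the level filter, and 5 rose in both fits. Over all tested genes 0.253% and 0.277% were called higher. The filter used all 15 libraries, so genes low at P25 could pass it through their levels at P29 and later ages. It thus favoured members that were high at those ages. Mup7 was at 3.47, 2.16 and 3.33 FPKM at P25 and at 14.76, 22.83 and 20.96 FPKM at P29. Its differences were 2.36 (SE 0.32, adjusted p = 0.00702) and 2.20 (SE 0.35, adjusted p = 0.0216). Mup17 rose from 1.01, 0.829 and 1.46 FPKM to 8.16, 9.63 and 10.1 FPKM, by 2.30 (SE 0.24, adjusted p = 0.00355) and 2.20 (SE 0.26, adjusted p = 0.0059). Mup15, Mup20 and Mup10 rose by 2.23, 1.64 and 1.47 with all libraries (adjusted p = 0.00853, 0.00413 and 0.00948) and by 2.13, 1.73 and 1.56 without P25 replicate 2 (adjusted p = 0.0226, 0.0059 and 0.0154). Every P29 library exceeded every P25 library in each of the 5, as in 6.84% of all tested genes. Mup3, the most abundant member, was at 10.9, 5.13 and 16.8 FPKM and then at 23.78, 21.69 and 30.03 FPKM, with no overlap and no call (difference 1.25, adjusted p = 0.163, or 0.83 and 0.241 without P25 replicate 2). Mup4 and Mup5 were at 0 in all 6 libraries. The reads of all 21 genes together, scaled to library depth as RPM, were at 22.4, 14.4 and 30.4 RPM at P25 and at 75.4, 92.2 and 91.4 RPM at P29. They were at 3.47 to 6.80 RPM at P21, 69.8 to 143 at P35 and 79.99 to 111.6 at P49.

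Values of single Mup genes are uncertain because their transcripts share sequence. Of the 50-base words in the annotated transcripts, 100% in Mup15, 86.7% in Mup7, 78.1% in Mup17, 76.5% in Mup10 and 50.5% in Mup20 also occurred in a transcript of another gene, against 13.3% in Mup3. In a voom fit of the recovered reads Mup17 and Mup20 passed (adjusted p = 0.0118 and 0.00853), while Mup7 and Mup15 had 0.0676 and Mup10 0.0903. Without P29 replicate 2 the calls of Mup7, Mup15 and Mup10 were lost (adjusted p = 0.0583, 0.0649 and 0.0710). In the fit without P25 replicate 2, the block ended the calls of Mup7 (0.0518) and Mup15 (0.0734).

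**Figure D5:**
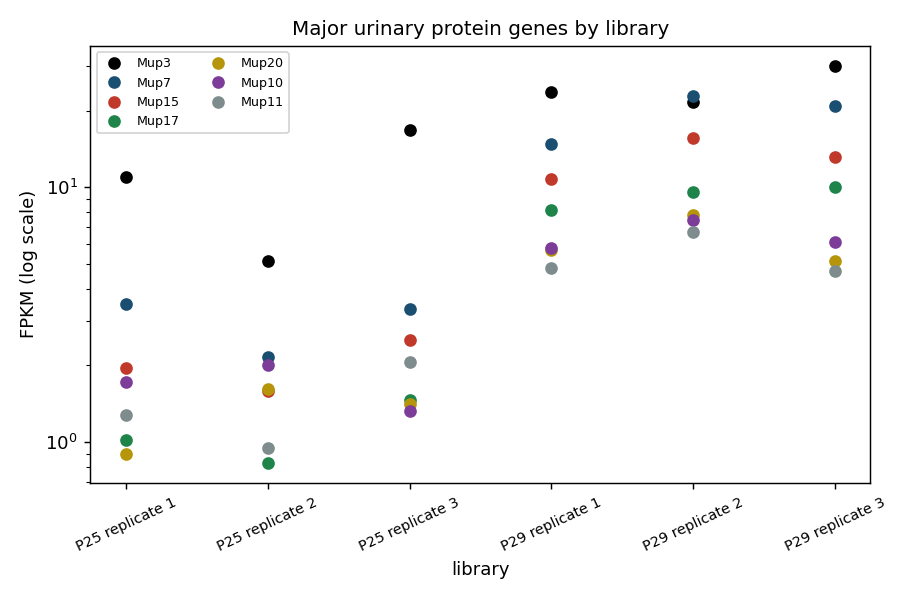
FPKM (log scale) of 7 Mup genes in each P25 and P29 library, 1 point per gene and library. Mup7 lies at 2.16 to 3.47 FPKM at P25 and at 14.8 to 22.8 FPKM at P29.

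Of 17 tested acute-phase and inflammatory genes, 2 rose with all libraries and none passed without P25 replicate 2, when 5 had an unadjusted p under 0.05. With all libraries 10 differences were positive and 7 negative, and without it 9 and 8. Over all tested genes 0.253% were called higher with all libraries. Without P25 replicate 2, 1491 of the 12259 genes had an unadjusted p under 0.05. For 6 of the 17 every P29 library was above every P25 library, against 6.84% of all tested genes. Lrg1, a secreted glycoprotein of inflammation, was at 453, 251 and 348 FPKM at P25 and at 807, 1020 and 680 FPKM at P29. It did not overlap and rose with all libraries (difference 1.27, adjusted p = 0.0397), with 1.05 and an adjusted p of 0.0545 without P25 replicate 2, and 0.0598 with the block. Orm2, an orosomucoid, rose from 4.14, 2.64 and 3.22 FPKM to 8.96, 9.48 and 8.55 FPKM (1.22, adjusted p = 0.0392), and had 1.10 and 0.0631 without P25 replicate 2. Without P29 replicate 2 the adjusted p of Lrg1 and Orm2 was 0.192 and 0.167, and 12 and 10 of 15 omissions ended the calls. Hp, which encodes haptoglobin, was higher in every P29 library and not called (1.01, adjusted p = 0.133, or 0.77 and 0.192 without P25 replicate 2). Outside that list, Rarres2, which encodes the adipokine chemerin, rose from 86.1, 71.2 and 77.5 FPKM to 161, 179 and 128 FPKM, by 0.97 (adjusted p = 0.0226) and 0.91 (0.0387). That call was lost without P25 replicate 3 (0.0682), P29 replicate 1 (0.0846) or P29 replicate 2 (0.151). Vnn1, the pantetheinase vanin-1, rose from 7.46, 3.35 and 4.44 FPKM to 19.02, 28.99 and 17.84 FPKM (1.94, adjusted p = 0.0287), with 1.73 and 0.0501 without P25 replicate 2, and 0.0598 with the block and 0.151 without P29 replicate 2.

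The calls that remained in each of the 15 single-library omissions were 8, namely Gatsl3, Hvcn1, Mup17, Mup20, Pmepa1, Sulf2, Synpo2 and Tmem86a. With only P25 and P29 in the fit, 2 of the 49 calls remained, Mup15 and Mup17. Of the 8, only Mup17 was thus called without the spread of the other ages. Hvcn1, a voltage-gated proton channel, was the 1 gene of the 8 that fell. It was at 7.44, 7.32 and 9.32 FPKM at P25 and at 3.37, 3.21 and 3.40 FPKM at P29, with no overlap and differences of -1.05 (SE 0.12, adjusted p = 0.00413) and -1.11 (SE 0.13, adjusted p = 0.0059). Gatsl3, also known as Castor1, an arginine sensor of the mTORC1 pathway, rose from 10.6, 12.3 and 11.4 FPKM to 29.1, 25.9 and 23.0 FPKM. Its differences were 1.11 (SE 0.12, adjusted p = 0.00355) and 1.16 (SE 0.13, adjusted p = 0.0059). Sulf2, which removes sulfate from heparan sulfate chains, rose from 43.2, 39.2 and 39.1 FPKM to 68.7, 74.8 and 62.7 FPKM (0.75, adjusted p = 0.00579, or 0.73 and 0.0141 without P25 replicate 2). Tmem86a, a lysoplasmalogenase, rose from 14.2, 13.7 and 16.4 FPKM to 27.8, 28.2 and 23.5 FPKM (0.80, adjusted p = 0.004995, or 0.75 and 0.0141 without P25 replicate 2). In the fit without P25 replicate 2, none of the 75 calls remained in all 5 further omissions.

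Of 16 tested axon guidance ligands and receptors, 3 differences were positive and 13 negative with all libraries, and 10 and 6 without P25 replicate 2. Over all tested genes 0.147% and 0.334% were called lower. Unc5a, a netrin receptor, was the 1 called gene of that list in both fits. It fell from 17.8, 13.7 and 21.1 FPKM to 10.4, 8.28 and 10.1 FPKM, with no overlap and differences of -0.79 (adjusted p = 0.0300) and -0.95 (0.0059). The block gave 0.0598 with all libraries, and 8 of 15 omissions ended the call, up to 0.156 without P29 replicate 2. Genes called only without P25 replicate 2 included C1qtnf1, a secreted adipokine (difference 1.19, adjusted p = 0.0148), Tfrc, the transferrin receptor (-1.12, 0.0456), Gpx3, a secreted glutathione peroxidase (-0.94, 0.0336), and Parm1 (-1.36, 0.0351). With all libraries their differences were 0.78, -0.85, -0.75 and -1.15 (adjusted p = 0.299, 0.176, 0.126 and 0.0784). For C1qtnf1 the P25 levels were 11.96, 28.59 and 11.05 FPKM and the P29 levels 25.1, 37.7 and 22.1 FPKM, and P25 replicate 2 lay within the P29 range.

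Markers of other cells gave no call with all libraries and 1 without P25 replicate 2, the pericyte marker Mcam (difference 0.4999, adjusted p = 0.0483, or 0.0811 with the block, against 0.69 and 0.0685 with all libraries). It was at 100.9, 68.05 and 103.1 FPKM at P25 and at 145.3, 151.1 and 137.9 FPKM at P29, with no overlap. Their medians depended on that library. The pericyte list had a median of -0.32 with P25 replicate 2 and 0.24 without it. It had 3 positive and 9 negative differences with that library, and 10 and 2 without it. Without that library, 0.277% of all tested genes were called higher. The fibroblast list had a median of -0.92 with it and -0.16 without it, the endothelial list -0.21 and 0.37, and the macrophage list -0.11 and 0.40. The immediate early list, which can respond to handling, went from -0.25 to 0.21. Mast cell markers were lower in both, with medians of -1.70 and -0.97 over 6 tested genes, none called. For 3 of the 6 every P29 library was below every P25 library, against 6.77% of all tested genes. The part of these markers in the sterol and other results was not tested.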

How the data were processed

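Total RNA of purified dermal adipocytes was sequenced after NEBNext Ultra library preparation, per the labels' protocols. Reads were processed with CASAVA, FastQC, STAR 2.5 and HTSeq 0.6.1 on mm10/GRCm38, per the submitters' processing notes. The annotation release is not given in the sources used here. The authors deposited 1 table of FPKM per gene and library. FPKM times gene length came in whole steps for 100% of genes (tolerance 0.05 read), which gave 23214103 to 32219574 reads counted to genes per library and 23691069 to 28701773 in the 6 compared. Values were fitted as log2 of the deposited FPKM plus a pseudocount of 1 with limma 3.58.1 (statmod 1.5.0, R 4.3.3), with 1 mean per age over 15 libraries (14 without P25 replicate 2), a trended and robust empirical Bayes step, and Benjamini-Hochberg adjustment over 12259 genes. For 3 against 3 libraries an exact permutation test cannot go below 0.1, so single genes were tested only in this fit. The code was tested on simulated data. Values of some single list members are not reported here, though counts and medians of the lists include them.

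The comparison, the 43 gene lists (692 genes, 689 in the table, 594 tested, 6 matched by gene ID) and the rule for named genes were chosen with earlier results of these data known. Named genes were the 15 largest called rises and falls per fit at 5 FPKM or more in the higher age, the sterol and TGF-beta lists, up to 4 called or most abundant members of each other list, and cell markers. Same-numbered P25 and P29 libraries correlated in their deviations from the age means at 0.294, 0.739 and 0.469, and pairs of different numbers between -0.703 and 0.562. The labels name no shared animal, litter or day. Because all 3 exceeded 0.1, blocked values are printed where a call changes. P25 replicate 1 correlated with P29 replicate 3 at 0.562, above the 0.294 of both replicates 1. The check therefore cannot show that the numbers pair the libraries. It was made with P25 replicate 2 included. Alternatives were other scaling, pseudocount, filters, weights, voom, thresholds, the 2 ages alone and single-library omissions. Strand use in counting is not given in the sources used here, so overlapping genes may share reads.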

Additional observations from a re-analysis of the deposited data

How the results depend on the processing

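Starting from 49 calls with all libraries, the count was 27 with no level filter, 3 with only P25 and P29 in the fit (692 genes at an unadjusted p under 0.05), 31 with the replicate block, 154 with library weights, 28 with voom on recovered reads, 14 at an adjusted p of 0.01 and 18 with a 2-fold minimum. Single-library omissions gave 8 to 75. Starting from 75 calls without P25 replicate 2, the count was 45 with no filter, 120 with a filter of 5 FPKM, 6 with only P25 and P29, 34 with the replicate block, 128 with library weights, 49 with voom, 9 at an adjusted p of 0.01 and 20 with a 2-fold minimum, and omissions gave 0 to 140. Among named calls of the first fit, voom ended those of Vnn1, Avpi1, Chl1, Col4a1, Tusc5, Lrg1, Orm2 and Crtac1 (adjusted p = 0.0603 to 0.0903), and quantile normalization those of Unc5a (0.0728) and Orm2 (0.0594). In the second fit, voom gave 0.0519 for Sqle, Srebf2, Tusc5 and Retn, and quantile normalization gave 0.0569 for Sqle, 0.0549 for Mvk and 0.0798 for Retn. Median-ratio scaling there gave 0.0543 for Sqle, 0.0514 for Mvk and Col4a1, and 0.0515 for Thrsp. The cause of these shifts was not tested, apart from the stricter thresholds and the smaller fits. Quantile normalization, median-ratio scaling, a pseudocount of 0.1 and the fit without trend or robust step kept both counts within 1.5 times. Over named and called genes, 10115 pairs of gene and setting kept the side of the threshold, 1169 lost a call and 72 gained one. None reversed a called direction. The 10115 include genes called in neither setting, whose direction was not compared, and only called genes could lose a call. These counts therefore do not give the share of calls that were kept. No scaling moved the median of all genes by over 0.1. Depth limits genes near the 1 FPKM filter, and 3 libraries per age limit all others.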
